A study of Mus musculus with 10 samples.

Results

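The 9 genes Anln, Ect2, Racgap1, Prc1, Cit, Arhgap11a, Hmmr, Pbk and Prr11, which encode proteins of the contractile ring, of the spindle midzone and of late mitosis, were followed in cultures of neural stem cells and progenitors (NSC/NPCs) derived from the subependymal zone of adult mice. They were taken by symbol from the 48795 genes listed in the count file, with no threshold on a value but with earlier results of these data known, and 1 row matched each symbol. All 9 passed the filter on low counts, which left 12859 genes for testing. RNA-seq had been carried out on 10 libraries from cells of mice that were 10 weeks old, in 4 groups. WT proliferating neurospheres (WT PRO, 3 libraries) were floating aggregates grown for 3 days in vitro (DIV) with EGF and FGF, although the results text of the study gives another age. WT cells at the onset of differentiation (WT DIFF, 3 libraries) were attached to Matrigel, kept for 2 DIV with FGF and for another 24 h with 2% fetal bovine serum and without mitogens, which is called 2 + 1 DIV. The p27KO PRO and p27KO DIFF groups had 2 libraries each, from mice with a germline mutation of Cdkn1b on a C57BL/6J background, so that the loss was not limited to a cell type or a time. Stage therefore changed the medium and the attachment of the cells together, and these cannot be told apart. The sources do not say which animals gave which library. The p-values therefore set group differences against the spread between these libraries, and how far they hold for animals cannot be told.

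Cytokinesis separates the daughter cells after the chromosomes have parted. The spindle midzone, bundled by PRC1 and by the centralspindlin complex that contains RACGAP1, recruits the exchange factor ECT2, which activates the GTPase RhoA at the cortex below. Active RhoA drives the assembly of actin and myosin II into a contractile ring, anillin (Anln) ties that ring to the membrane, septins and RhoA, and citron kinase (Cit) acts at the midbody where the last bridge is cut. Many transcripts of this machinery are made in the G2 and M phases of dividing cells and are low in quiescent ones, and their promoters often carry a CHR element (cell cycle genes homology region) downstream of CCAAT boxes. p27, encoded by Cdkn1b, is an inhibitor of cyclin-dependent kinases that acts in cell cycle exit.

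Library totals ranged from 19190068 to 25291674 estimated counts, and each of the 9 genes had between 157 and 5616 counts per library, so that the spread between replicates and not counting error set the precision of most values. Cdkn1b counts were not lost in the libraries labelled p27KO, at 114 and 90.7 CPM (counts scaled to a common library total) in PRO and 140 and 137 CPM in DIFF, against 103 to 112 CPM in WT PRO and 205 to 209 CPM in WT DIFF. Counts per gene do not show whether the part that codes for p27 was kept in the libraries labelled p27KO. The GEO titles and the genotype field of these 4 libraries give p27KO, while their free-text description names WT cells, and they are therefore called the libraries labelled p27KO. Xist was between 2260 and 3590 CPM in them and at most 2.57 CPM in the WT libraries, so that genotype and sex coincided and cannot be told apart; all 9 genes are on autosomes. The 10 neural progenitor markers were detected in all groups, with a summed level of 7730 to 9420 CPM. All 8 microglial markers were under 1 CPM in every group mean, and the endothelial and the mural and fibroblast markers summed to at most 10.9 and 10.8 CPM. The ependymal markers summed to between 14.7 and 20.4 CPM in PRO and between 87.1 and 105 CPM in DIFF over both labels, with Tmem212, Ccdc153 and Dnah11 under 1 CPM in every group mean, and their part in the results was not tested.

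The genes lie on 8 autosomes of GRCm38. Anln (ENSMUSG00000036777) spans 22332012 to 22389188 of chromosome 9, Ect2 (ENSMUSG00000027699) 27097222 to 27153878 of chromosome 3, and Racgap1 (ENSMUSG00000023015) 99620496 to 99651656 of chromosome 15, all on the minus strand. Prc1 (ENSMUSG00000038943) spans 80294450 to 80316259 of chromosome 7 on the plus strand, and its exons overlap those of the antisense gene Rccd1. Cit (ENSMUSG00000029516) spans 115845278 to 116008947 of chromosome 5 on the plus strand. Arhgap11a (ENSMUSG00000041219) lies on the minus strand of chromosome 2 from 113831492 to 113848661, and Pbk (ENSMUSG00000022033) on the plus strand of chromosome 14 from 65805837 to 65817822. Hmmr (ENSMUSG00000020330, 40701395 to 40733422) and Prr11 (ENSMUSG00000020493, 87089153 to 87108708) both lie on the minus strand of chromosome 11. The strand setting of the counting is not given in the sources used here, so that reads of Prc1 and Rccd1 could be shared. Anln, Ect2 and Cit overlap other annotated genes only outside their exons.

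Promoter sequence was examined because the 9 genes moved together, as given further on. RefSeq windows of 250 bases before to 50 bases after the start (GRCm38.p6) were matched for 8 of the 9 genes (not for Pbk), with 2 starts each for Ect2 and Prc1. Both strands were searched for the CHR letters TTTGAA or TTCGAA, the CHR variant TTTAAA and the CCAAT box. Of E2F cores, TTCCCGC and TTGGCGC were searched, and likewise TTCGCGC and TTGCCGC. CHR letters were found for 7 of the 8 genes with a window (all but Cit), against 19.2% of the 32851 windows of all genes. In the 250 bases before the start alone they were found for 3 genes (Ect2, Prc1 and Arhgap11a), against 17.1% of all windows. CCAAT was found for 6 genes, against 37.4% of all windows, and the same 6 genes held both CHR and CCAAT, against 7.52%. An E2F core was found for Ect2, Arhgap11a and Hmmr, against 9.57% of all windows, and TTTAAA for none, against 13.2%. A gene was counted if any of its starts matched, whereas the shares are of windows. Of the 10 windows of these genes, 9 held CHR letters, 8 CCAAT, 8 both and 4 an E2F core. These matches are letters and not sites of measured binding. The stretches from 100 bases before to 22 bases after the RefSeq start are shown for the 6 genes with both motifs, so that the order of the matches near the start can be read (for Ect2 and Prc1 at the first of their starts), and for Cit, whose window held neither. Each reads 5′ to 3′ on the strand of the gene, and capitals mark CHR, CCAAT and E2F letters on either strand (ATTGG is CCAAT on the opposite strand).
Ect2 (chr3:27153833-27153954, minus strand): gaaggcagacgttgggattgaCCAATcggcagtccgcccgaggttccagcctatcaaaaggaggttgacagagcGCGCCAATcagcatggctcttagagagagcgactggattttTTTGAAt
Racgap1 (chr15:99651635-99651756, minus strand): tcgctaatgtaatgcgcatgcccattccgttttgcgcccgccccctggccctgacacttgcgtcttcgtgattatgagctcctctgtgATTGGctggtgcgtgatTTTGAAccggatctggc
Prc1 (chr7:80294351-80294472, plus strand): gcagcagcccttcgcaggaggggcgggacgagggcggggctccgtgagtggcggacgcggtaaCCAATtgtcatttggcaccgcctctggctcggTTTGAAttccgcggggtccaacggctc
Arhgap11a (chr2:113848640-113848761, minus strand): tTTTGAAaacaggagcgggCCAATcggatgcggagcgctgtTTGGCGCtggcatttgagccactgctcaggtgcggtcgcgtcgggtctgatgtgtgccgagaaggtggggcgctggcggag
Hmmr (chr11:40733416-40733537, minus strand): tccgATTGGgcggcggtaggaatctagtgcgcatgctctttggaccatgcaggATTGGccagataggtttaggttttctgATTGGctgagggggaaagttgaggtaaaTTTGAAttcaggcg
Prr11 (chr11:87108693-87108814, minus strand): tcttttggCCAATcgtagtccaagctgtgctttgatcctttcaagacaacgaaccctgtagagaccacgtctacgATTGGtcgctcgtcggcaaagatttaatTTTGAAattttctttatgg
Cit (chr5:115845556-115845677, plus strand): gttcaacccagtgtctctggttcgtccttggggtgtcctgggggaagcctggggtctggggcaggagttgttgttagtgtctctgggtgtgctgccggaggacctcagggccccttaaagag
In Racgap1, Hmmr and Prr11 the CHR letters began at bases 6, 9 and 4, counted from 1 at the start, and the nearest CCAAT letters, on the opposite strand, began 12, 20 and 25 bases before the start. In Prc1 the CHR letters began 5 bases before the start. In Arhgap11a they began 99 bases before it, upstream of CCAAT and of an E2F core. In Ect2 a CCAAT box overlapped an E2F core read on the other strand, and CHR letters began at base 16. A further CHR match of Ect2 began 138 bases before the start, upstream of its CCAAT boxes and outside the stretch printed. Anln, whose window is not printed, had CHR letters only past its start, on both strands.

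**Figure D1:**
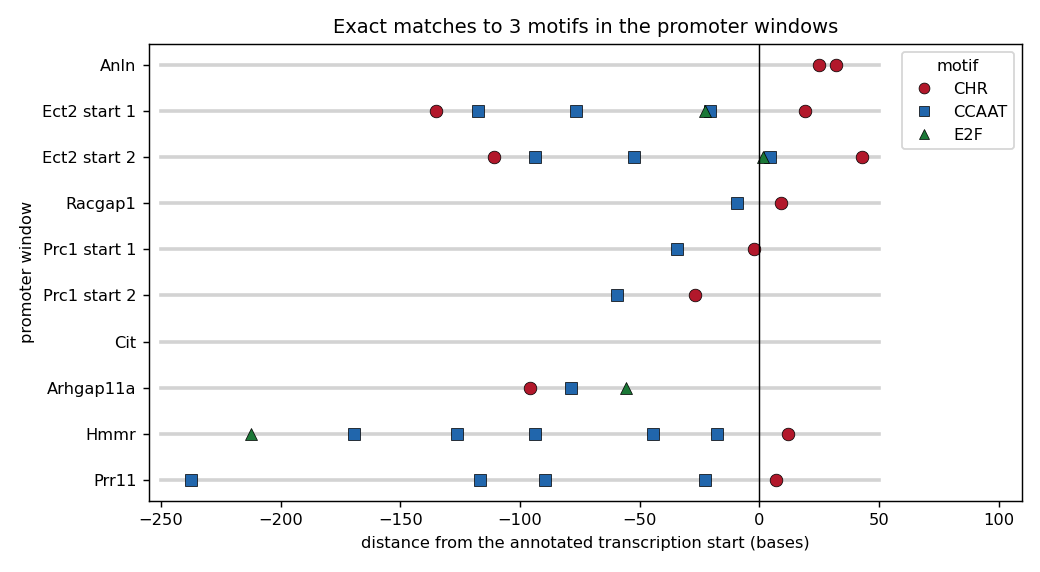
Motif letters in the RefSeq promoter windows of 8 of the 9 genes, plotted as distance in bases from the annotated start, with 1 grey line for each window and a symbol at the middle of each match. CHR and CCAAT letters lie together in the windows of Ect2, Racgap1, Prc1, Arhgap11a, Hmmr and Prr11, and Cit has none.

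In WT neurospheres the 9 genes were well expressed, and their order per length could be set. In CPM per kilobase of merged exons (RPKM, a level), Pbk was highest at 54.5 ± 4.68 (SD, n = 3) and Cit lowest at 4.02 ± 0.325 (SD, n = 3). Racgap1 followed Pbk at 31.6, then Arhgap11a at 28.1, Prc1 at 26.9, Ect2 at 23.5, Hmmr at 17.6, Prr11 at 15.4 and Anln at 11.7. The ranges of Arhgap11a and Prc1 over the 3 libraries overlapped, and those of the other neighbours in this order did not. Merged exons of all isoforms understate genes with many isoforms, such as Cit with 16417 exon bases. In WT DIFF the levels lay between 0.940 RPKM for Cit and 4.96 RPKM for Arhgap11a, and in the libraries labelled p27KO DIFF between 1.59 RPKM for Cit and 17.6 RPKM for Pbk.

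The first question was whether the transcripts of this machinery changed between proliferation and the onset of differentiation in WT cells. All 9 fell, by 4.31-fold for Cit to 11.4-fold for Pbk, and each WT DIFF library was below each WT PRO library for every gene. Over all genes tested, 33.9% were called lower in this comparison and 35.6% had WT DIFF libraries that lay wholly below WT PRO. The median log2 fold change of the 9 genes was -2.85, against -0.00 over all genes. In bulk RNA, fewer cells of a type and less RNA per cell cannot be told apart. Here and throughout, log2 fold changes are fitted values, given with their standard error (SE). The adjusted p is two-sided, from the quasi-likelihood test of edgeR, with the Benjamini-Hochberg method applied over all genes tested, and CPM values are levels.

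Ect2 and Racgap1 act together in switching on RhoA at the midzone. Ect2 was at 113, 131 and 136 CPM in WT PRO and at 17.2, 8.33 and 15.7 CPM in WT DIFF. Racgap1 was at 225, 224 and 222 CPM in WT PRO and at 42.5, 20.3 and 31.4 CPM in WT DIFF. The proliferating libraries were tight for Racgap1, while in both genes replicate 2 of WT DIFF was the lowest. Ect2 fell by 3.23 on the log2 scale (SE 0.23, adjusted p = 2.2e-06, edgeR) and Racgap1 by 2.85 (SE 0.22, adjusted p = 3.6e-06, edgeR). Prc1, the antiparallel microtubule bundler, was at 233, 215 and 217 CPM in WT PRO and at 43.7, 20.9 and 34.0 CPM in WT DIFF. It fell by 2.77 (SE 0.21, adjusted p = 3.6e-06, edgeR).

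Anln encodes the scaffold of the ring and Cit the kinase of the midbody. Anln was at 102, 106 and 110 CPM in WT PRO and at 16.5, 13.3 and 13.2 CPM in WT DIFF. Cit was at 67.1, 70.6 and 60.1 CPM in WT PRO and at 18.7, 15.5 and 12.1 CPM in WT DIFF. Both genes had stages that lay far apart, and Cit kept more of its level than any other of the 9. Anln fell by 2.90 (SE 0.12, adjusted p = 9.6e-08, edgeR) and Cit by 2.11 (SE 0.17, adjusted p = 4.0e-06, edgeR). Arhgap11a, which encodes a GTPase-activating protein, was at 142, 152 and 155 CPM in WT PRO and at 27.6, 23.2 and 28.5 CPM in WT DIFF. With this small spread its fall of 2.51 had the lowest standard error of the 9 (SE 0.09, adjusted p = 6.5e-08, edgeR).

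Hmmr encodes a hyaluronan receptor that also binds spindle microtubules, Pbk a mitotic kinase, and Prr11 a proline-rich protein of dividing cells. Hmmr was at 99.1, 90.7 and 97.4 CPM in WT PRO and at 9.57, 6.51 and 11.1 CPM in WT DIFF. Pbk was at 88.0, 101 and 104 CPM in WT PRO and at 10.8, 6.63 and 8.54 CPM in WT DIFF. Prr11 was at 57.5, 57.2 and 61.9 CPM in WT PRO and at 12.1, 8.99 and 11.5 CPM in WT DIFF. Replicate 2 of WT DIFF was again lowest for these 3 genes, and it was lowest for 7 of the 9 in all, the exceptions being Anln and Cit, where replicate 3 was. Pbk fell by 3.51 (SE 0.16, adjusted p = 1.3e-07, edgeR), Hmmr by 3.42 (SE 0.16, adjusted p = 1.6e-07, edgeR) and Prr11 by 2.45 (SE 0.12, adjusted p = 1.9e-07, edgeR). Mki67, the gene of the proliferation antigen Ki67, was also lowest in replicate 2 of WT DIFF, at 67.6 CPM against 118 and 107 CPM in the others, and its part in these values was not tested.

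**Figure D2:**
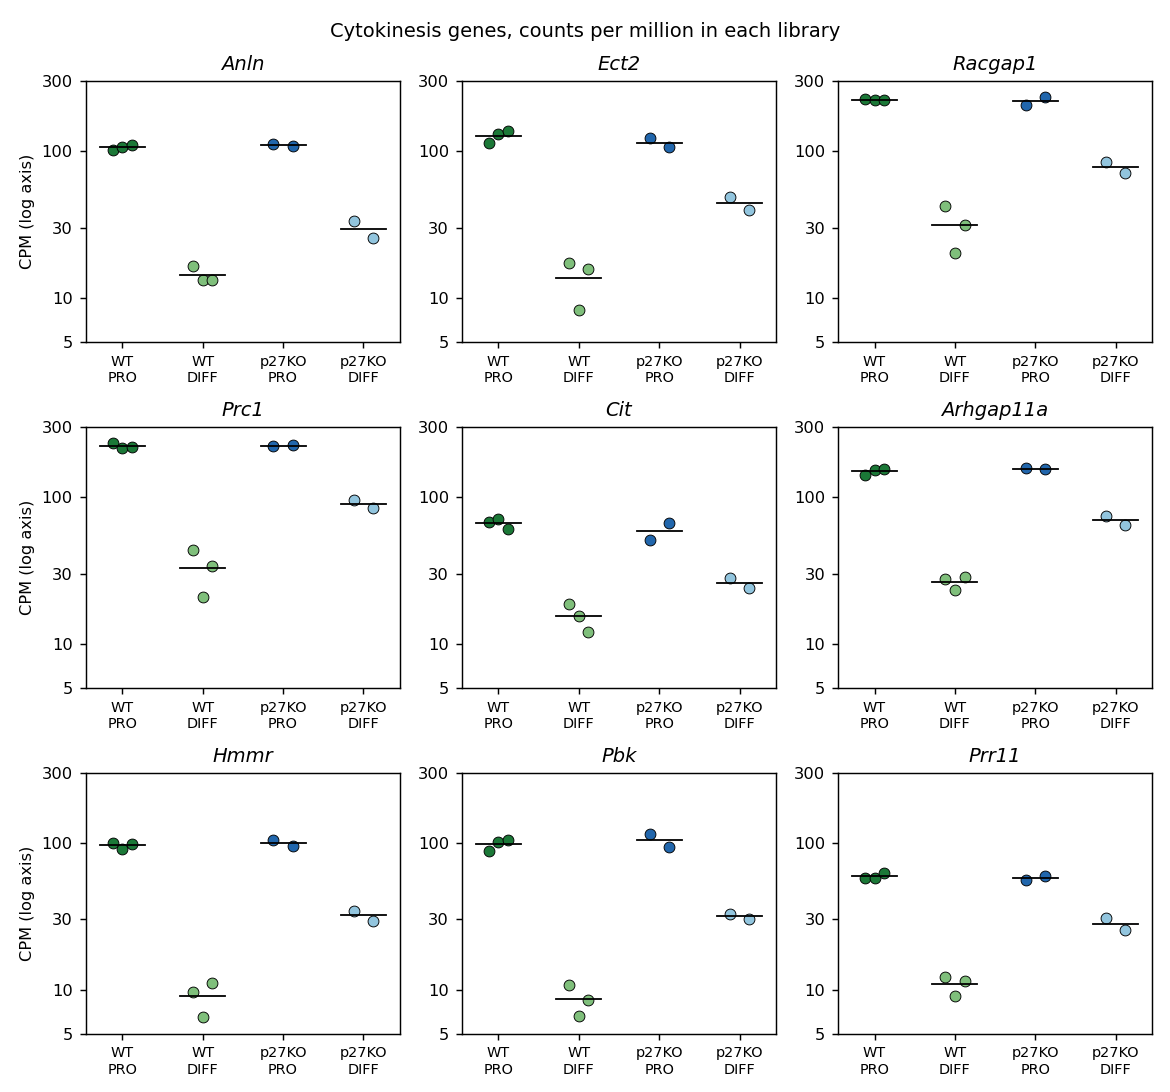
Level of each of the 9 genes in every library, in CPM on a log axis, with the 4 groups side by side, a point for each library and a line at the mean. WT DIFF libraries sit lowest in every panel and the libraries labelled p27KO DIFF lie between them and the PRO libraries.

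In the libraries labelled p27KO the same 9 genes fell from PRO to DIFF, by smaller fitted amounts. The call was made for 9 of 9, against 30.2% of all genes called lower, and both DIFF libraries were below both PRO libraries for every gene, as for 39.8% of all genes tested. The median log2 fold change was -1.39, against -0.03 over all genes. Anln fell most, from 111 and 109 CPM to 33.4 and 25.7 CPM, a log2 fold change of -1.92 (SE 0.14, adjusted p = 6.6e-06, edgeR). Prr11 fell least, from 55.7 and 59.4 CPM to 30.7 and 25.5 CPM, a log2 fold change of -1.06 (SE 0.14, adjusted p = 0.00016, edgeR). Anln thus fell most under this label, whereas in WT Pbk, Hmmr and Ect2 fell by more. Pbk went from 115 and 93.6 CPM to 32.9 and 30.4 CPM (log2 fold change -1.74, SE 0.18, adjusted p = 3.6e-05, edgeR), and Hmmr from 104 and 94.5 CPM to 34.5 and 29.4 CPM (log2 fold change -1.66, SE 0.18, adjusted p = 5.3e-05, edgeR).

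The RhoA activators and the midzone bundler fell by amounts between those of Anln and Prr11. Racgap1 went from 207 and 232 CPM to 84.4 and 71.0 CPM, a log2 fold change of -1.52 (SE 0.25, adjusted p = 0.00076, edgeR). Ect2 went from 122 and 106 CPM to 48.8 and 39.5 CPM, a log2 fold change of -1.39 (SE 0.26, adjusted p = 0.0015, edgeR). Prc1 went from 221 and 226 CPM to 95.7 and 84.5 CPM, a log2 fold change of -1.34 (SE 0.25, adjusted p = 0.0014, edgeR). Replicate 1 of p27KO DIFF was above replicate 2 for these 3 genes, as for all 9, and the 2 replicates of PRO had no common order. Cit went from 50.9 and 66.4 CPM to 28.2 and 23.9 CPM (log2 fold change -1.20, SE 0.20, adjusted p = 0.00078, edgeR), and Arhgap11a from 158 and 154 CPM to 74.5 and 64.3 CPM (log2 fold change -1.19, SE 0.11, adjusted p = 1.9e-05, edgeR). Mki67 was likewise higher in replicate 1 of p27KO DIFF, at 360 CPM against 313 CPM.

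As a share of the mean PRO level of the same label, the 9 genes kept a median of 14.0% in WT DIFF and 38.7% in the libraries labelled p27KO DIFF. In WT the share ran from 8.89% ± 2.16 (SD, n = 3) for Pbk to 23.4% ± 4.99 (SD, n = 3) for Cit. In the libraries labelled p27KO it ran from 26.9% ± 4.95 (SD, n = 2) for Anln to 48.8% ± 6.43 (SD, n = 2) for Prr11. The highest single WT share was 28.3%, for Cit, and the only share under the p27KO label below it was 23.4%, of Anln in replicate 2. As a ratio, Ect2 showed the widest gap, with 10.8% ± 3.73 (SD, n = 3) in WT and 38.7% ± 5.75 (SD, n = 2) under the p27KO label, 3.57 times as much. Cit showed the narrowest ratio, with 44.4% ± 5.14 (SD, n = 2) under the p27KO label, 1.90 times its WT share. In percentage points the gap was widest for Prr11, with 48.8% against 18.4% in WT, and narrowest for Anln, with 26.9% against 13.5%. The SD of the share covers the DIFF libraries only.

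**Figure D3:**
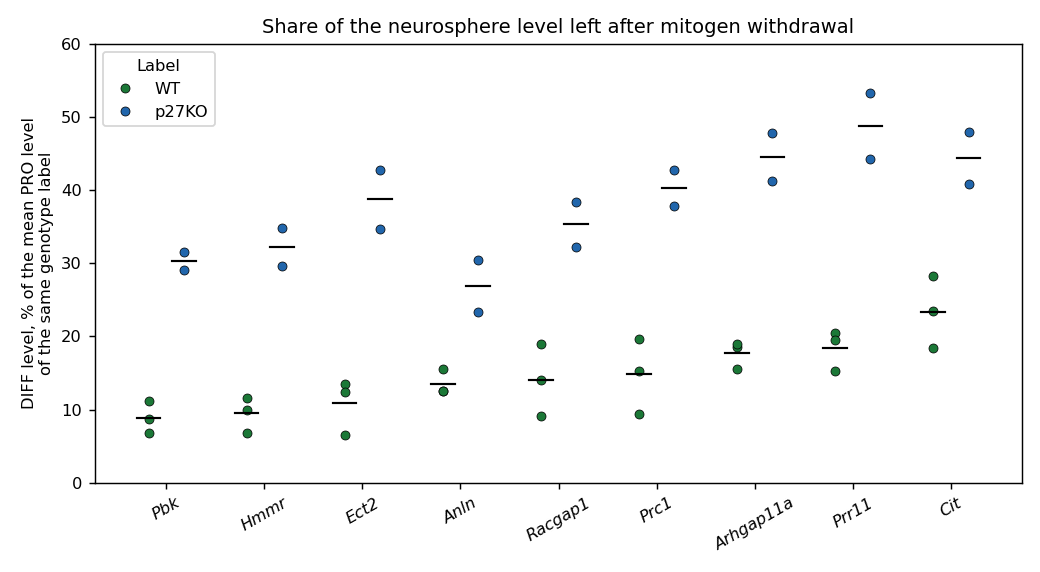
Percent of the mean PRO level left in each DIFF library for the 9 genes, with WT and p27KO labels apart, a point for each library and bars at the means. For every gene the libraries labelled p27KO sit above the WT ones, with medians over genes of 38.7% and 14.0%.

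Whether the fall itself differed between the labels was tested by the interaction term (genotype by stage), which uses all 4 groups and so shares its libraries with each comparison given above. The fitted difference was positive for all 9 genes, with a median of 1.39 on the log2 scale, against -0.01 over all genes. It passed for 4 of the 9, against 0.389% of all genes tested. These were Arhgap11a with a difference of 1.32 (SE 0.14, adjusted p = 0.022, edgeR), Hmmr with 1.76 (SE 0.24, adjusted p = 0.023, edgeR), Pbk with 1.77 (SE 0.23, adjusted p = 0.023, edgeR) and Prr11 with 1.39 (SE 0.18, adjusted p = 0.023, edgeR). The other 5 had fitted differences of the same sign that missed the threshold. Ect2 had the largest of all, 1.83, with a wider error (SE 0.34, adjusted p = 0.075, edgeR), and Anln had 0.98 (SE 0.18, adjusted p = 0.075, edgeR). Prc1, Racgap1 and Cit followed with 1.43, 1.33 and 0.91 (adjusted p = 0.16, 0.24 and 0.43, edgeR). DESeq2 called 8 of the 9, all but Cit, and 157 of the 12859 genes, against 50 of them with edgeR.

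The count of 4 rested on single libraries. It was 0 without replicate 2 or 3 of WT PRO and without any 1 of the 4 libraries labelled p27KO, and 2 without replicate 1 of WT PRO. Leaving out WT DIFF replicate 2 gave 6 calls and leaving out its replicate 1 gave 8. The count over all 12859 genes moved with it, to 0 in each of the fits where none of the 9 passed, 13 without replicate 1 of WT PRO, and 82 and 89 with WT DIFF replicate 2 or 1 left out. In each of these fits all 9 differences stayed positive. In those without a WT library, all 9 had an unadjusted p under 0.05 with edgeR, as did between 495 and 622 of all 12859 genes.

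**Figure D4:**
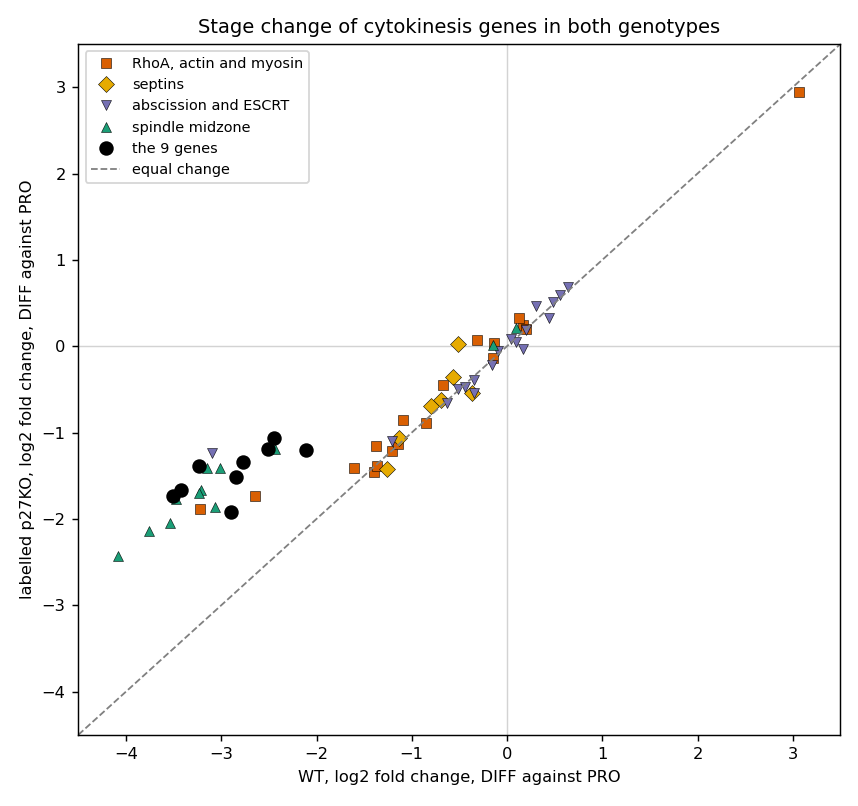
Log2 fold change from PRO to DIFF in the libraries labelled p27KO (vertical axis) against that in WT (horizontal axis), with a point for each of the 9 genes (black) and of 55 other cytokinesis genes in 4 groups, and a dashed line at equal change. The 9 black points lie below 0 on both axes and above the line, with medians of -2.85 and -1.39.

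Neurospheres of both labels had similar levels of these genes. None of the 9 passed the test in PRO, where 0.0156% of all genes did. With edgeR and with DESeq2, 0 of 9 had an unadjusted p under 0.05, against 603 and 619 of all 12859 genes. The PRO libraries of both labels overlapped for every gene, whereas 10.9% of all genes had both p27KO libraries below, and 6.94% above, the WT ones. The log2 differences, p27KO label against WT, ran from -0.14 for Cit to 0.12 for Pbk. The 95% interval of the difference was narrowest for Arhgap11a, from -0.13 to 0.31, and widest for Ect2, from -0.64 to 0.39, so that moderate differences in either direction were not detectable with 3 and 2 libraries.

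At 2 + 1 DIV both libraries labelled p27KO lay above all 3 WT libraries for each of the 9 genes, as for 17.0% of all genes tested. The difference passed for 8 genes, all higher, against 1.91% of all genes called higher, and the median difference was 1.41 on the log2 scale against -0.01 over all genes. Pbk (1.89, SE 0.17, adjusted p = 0.00066, edgeR) and Hmmr (1.84, SE 0.17, adjusted p = 0.00066, edgeR) differed most, followed by Ect2 (1.71, SE 0.24, adjusted p = 0.0057, edgeR). Prc1 differed by 1.48 (SE 0.22, adjusted p = 0.0082, edgeR), Arhgap11a by 1.41 (SE 0.10, adjusted p = 0.00033, edgeR) and Prr11 by 1.39 (SE 0.13, adjusted p = 0.00066, edgeR). Racgap1 differed by 1.33 (SE 0.23, adjusted p = 0.017, edgeR) and Anln by 1.06 (SE 0.13, adjusted p = 0.0027, edgeR). Cit, at 28.2 and 23.9 CPM against 18.7, 15.5 and 12.1 CPM, differed by 0.77 and missed the threshold (SE 0.19, adjusted p = 0.080, edgeR). Without replicate 1 of p27KO DIFF the count was 5, with Ect2, Racgap1 and Prc1 lost. With only the DIFF libraries in the fit it was 4, with Anln lost as well. Racgap1 also lost its call without replicate 3 of WT DIFF or replicate 2 of p27KO DIFF, and Cit gained one without replicate 1 of WT DIFF and with DESeq2.

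**Figure D5:**
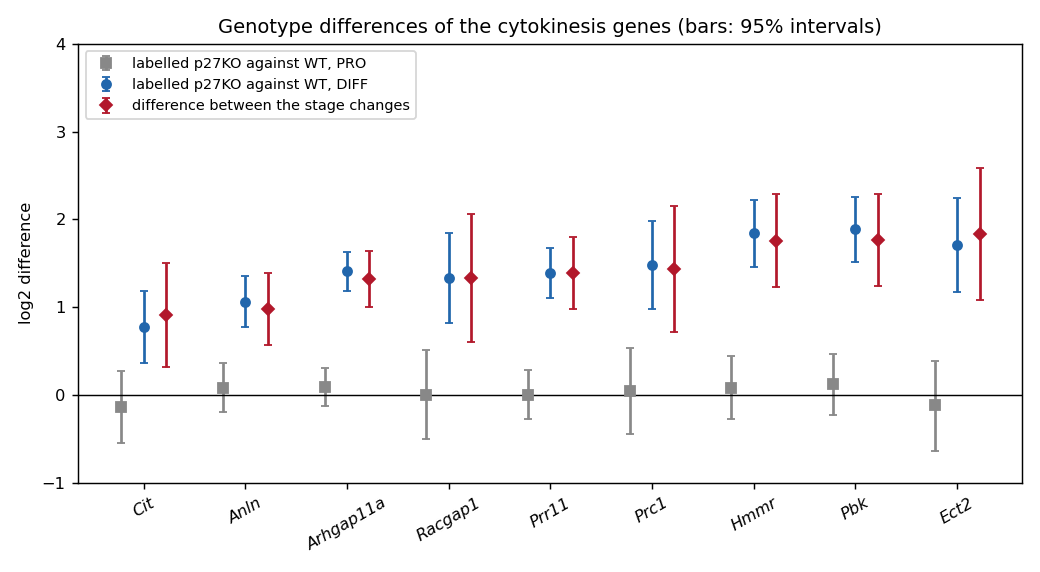
Log2 difference between the libraries labelled p27KO and WT for the 9 genes in PRO (squares) and in DIFF (circles), and the difference between the stage changes (diamonds), with 95% intervals as bars. The PRO differences lie between -0.14 and 0.12 with intervals that span 0, the DIFF differences lie between 0.77 and 1.89, and the differences between stage changes lie between 0.91 and 1.83.

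A wider list of 55 cytokinesis genes, none of them among the 9, was used to see how far the pattern extended, and all 55 were tested. In WT, 35 fell and 6 rose (33.5% of all genes were called higher), with a median of -0.63, and in the libraries labelled p27KO 33 fell and 5 rose (27.5% of all genes were called higher), with a median of -0.54. The interaction passed for 7, all positive, against 0.389% of all genes, and the DIFF difference for 14, all higher under the p27KO label, against 1.91% of all genes called higher. The medians of these differences were 0.09 and 0.16. In PRO 0 of the 55 passed, against 0.0156% of all genes. With edgeR and with DESeq2, 0 of the 55 had an unadjusted p under 0.05, against 603 and 619 of all 12859 genes. The 7 interaction calls became 0 without replicate 2 or 3 of WT PRO and 1 without its replicate 1. They became 3 without replicate 3 and 11 without replicate 2 of WT DIFF. In these fits 14 or 15 of the 55 had an unadjusted p under 0.05 with edgeR, as did between 495 and 682 of all 12859 genes. The calls also depended on each library labelled p27KO. With any 1 of those left out, the median difference lay between 0.05 and 0.15. The 14 DIFF calls became 8 without replicate 1 of p27KO DIFF and 3 with only the DIFF libraries in the fit. The median of the wider list lay closer to that of all genes than the median of the 9, and the 4 groups of the list differed in their counts.

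Of 12 genes of centralspindlin, the chromosomal passenger complex and the spindle midzone, 10 fell in WT (median -3.18), where 33.9% of all genes were called lower, and 10 in the libraries labelled p27KO (median -1.69), where 30.2% were. Aurkb, the kinase of the passenger complex, went from 53.6 ± 1.03 to 3.21 ± 1.03 CPM in WT (SD, n = 3 each) and from 55.7 ± 0.339 to 10.5 ± 0.882 CPM under the p27KO label (SD, n = 2 each). Its partners Birc5, Incenp and Cdca8 and the midzone kinesin Kif4 were called with it in the interaction, where the differences were 1.65 for Aurkb, 1.62 for Birc5, 1.21 for Incenp, 1.69 for Cdca8 and 1.54 for Kif4. With the replicate number as a block, Aurkb, Incenp and Cdca8 lost the call. Kif4 is X-linked, and for it, as for every gene, the difference between labels also compares the sexes. Map9 (26.8 ± 1.09 and 28.7 ± 2.06 CPM in WT, SD, n = 3 each) and Clasp1 (238 ± 15.9 and 216 ± 20.2 CPM, SD, n = 3 each), both microtubule-associated proteins with roles outside division, were the 2 that did not pass in WT.

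Of 18 genes of RhoA, actin and myosin at the ring, 12 fell and 1 rose in WT, against 33.9% and 33.5% of all genes, with a median of -0.97. The formin gene Diaph3 fell from 38.7 ± 1.10 to 6.15 ± 1.61 CPM (SD, n = 3 each) and Iqgap3, a scaffold of dividing cells, from 53.0 ± 2.17 to 5.72 ± 0.794 CPM (SD, n = 3 each). Myl9, a myosin light chain best known from smooth muscle, was the 1 that rose, by a log2 fold change of 3.06, from 2.37 ± 1.25 to 19.7 ± 6.55 CPM (SD, n = 3 each). Mprip, a myosin phosphatase partner, was at 291 ± 13.9 CPM in PRO and 337 ± 45.4 CPM in DIFF (SD, n = 3 each) and did not pass. Iqgap3 was the only gene of this group with a called interaction, at 1.34, against 0.389% of all genes, and it lost the call with the replicate block. In DIFF 3 of the 18 were higher under the p27KO label, against 1.91% of all genes called higher.

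All 7 septin genes of the wider list fell in WT, against 33.9% of all genes. They fell by smaller amounts than the 9, from -0.37 to -1.26 on the log2 scale. Septin genes outside the list were not examined. Septins form filaments that also support the cell cortex outside division. Sept9 went from 699 ± 105 to 294 ± 39.6 CPM (SD, n = 3 each) and Sept6 from 48.6 ± 2.23 to 22.3 ± 1.63 CPM (SD, n = 3 each) in WT. Under the p27KO label 5 of 7 fell, against 30.2% of all genes. With edgeR 0 of 7 passed the interaction, against 0.389% of all genes. The DIFF difference passed for 0 of 7, against 1.91% of all genes called higher. Sept8 was at 234 ± 27.5 and 182 ± 30.6 CPM in WT (SD, n = 3 each). Sept11, at 303 ± 20.7 and 213 ± 35.6 CPM in WT (SD, n = 3 each), was at 267 ± 20.3 and 278 ± 53.5 CPM under the p27KO label (SD, n = 2 each), where it did not pass.

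The 18 genes of abscission and the ESCRT machinery, which cuts the last bridge and also sorts membrane proteins in cells that do not divide, had 6 called lower and 5 called higher in WT and a median of -0.02, which is near the background, since 33.9% of all genes were called lower and 33.5% higher. Cep55, which recruits ESCRT proteins to the midbody, went from 27 ± 0.342 to 3.18 ± 0.747 CPM in WT (SD, n = 3 each) and from 27.8 ± 0.960 to 12 ± 1.32 CPM under the p27KO label (SD, n = 2 each). It was the only one of the 18 called in the interaction, at 1.86, against 0.389% of all genes. It was also the only one called in the DIFF difference, against 1.91% of all genes called higher. Arf6, a GTPase of membrane traffic, fell from 122 ± 9.21 to 52.9 ± 1.56 CPM (SD, n = 3 each) in WT, and was at 114 ± 0.00267 and 54.1 ± 4.45 CPM under the p27KO label (SD, n = 2 each). Among genes that rose, the ESCRT-III gene Chmp1b went from 30.6 ± 0.748 to 45.5 ± 4.91 CPM in WT (SD, n = 3 each). Chmp4c was low throughout, at 1.66 ± 0.435 and 2.59 ± 0.214 CPM in WT (SD, n = 3 each), and its call was lost in several of the alternative fits. With the replicate number as a block, 4 genes of the wider list were called in the interaction, against 7 without it. Aurkb, Incenp, Cdca8 and Iqgap3 lost the call, so that the 4 were not all among the 7. The 4 calls among the 9 genes remained.

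A further 16 mitotic genes outside cytokinesis all fell in WT (16 of 16, median -3.23, against 33.9% of all genes), 15 fell under the p27KO label (median -1.64, against 30.2%), 6 passed the interaction (median 1.56, against 0.389%) and 15 were higher in DIFF under that label (median 1.61, against 1.91%). The 6 interaction calls were lost without replicate 2 or 3 of WT PRO, where 0 of the 12859 genes passed. No difference between this set and the 9 genes was tested.

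Across the 10 libraries the 9 genes had nearly the same profile. Over 36 pairs, Pearson's r of log2 CPM was lowest for Ect2 and Cit (0.951) and highest for Arhgap11a and Prr11 (0.998). The points are 4 groups of libraries set apart mainly by stage, so that high values are given by the design. Counting the rest of the 9, 172 genes lay closer to the mean profile than the least similar of the 9, Cit, did. The genes most like the mean profile were Kif4, Cdca8, Bub1, Cenpa, Bub1b, Nusap1, Cdc20, Ccna2, Ckap2l and Aurkb, with r from 0.9964 to 0.9989 over 10 libraries. For the single genes, the most similar other gene was Polq for Anln, Top2a for Ect2, Espl1 for Racgap1, Tpx2 for Prc1, Xkr5 for Cit, Kif15 for both Arhgap11a and Hmmr, Kif4 for Pbk and Mki67 for Prr11, with r from 0.9945 to 0.9993 over the same 10 libraries. With ranks in place of levels, 0 of these 10 genes were among the 10 most alike, so that the order among very similar genes was not fixed by these data.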

How the data were processed

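RNA-seq libraries were made by the authors with Ovation kits from total RNA and sequenced on a HiSeq4000. Reads were aligned with STAR and the authors deposited estimated counts per gene from RSEM, as whole numbers and without normalization (GRCm38/mm10 per the labels). The free-text labels and the study's methods name no strand setting. Gene names and positions came from GENCODE vM21, which matched 48349 of 48795 identifiers, and promoters from RefSeq.

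A gene was dropped where 4 or more of the 10 libraries had less than 1 CPM, which left 12859 genes. The study named DESeq2. Here TMM scaling and a robust quasi-likelihood model of 4 groups over all 10 libraries were used, in edgeR 4.0.16 (limma 3.58.1, R 4.3.3), with a threshold of 0.05 on adjusted p-values. CPM and RPKM were computed from the library totals without TMM factors, and log2 CPM for profiles with a prior count of 2. Intervals of 95% used the t quantile of the fit. The 9 genes and the gene lists were chosen with earlier results of these data known. The genes named from the wider list were, for each of its 4 groups, the 2 with the most negative and the 2 with the most positive WT log2 fold change, and those called in the interaction. The alternatives were DESeq2 1.42.0, its size factors in edgeR, no filter, another reading of it, a fit of the compared groups only, thinned counts, an absolute log2 fold change of at least 1, the replicate block and each library left out in turn.

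Libraries of WT with the same replicate number deviated together from their group means (correlations of 0.248, 0.301 and 0.395 across genes, against -0.221 to -0.0874 for other pairs), so that a fit with the numbers as a block was run as an alternative to the unblocked fit whose values are printed. Deviations from a group mean cancel within the group, so the negative values of the other WT pairs are tied to the positive ones. No source says what the numbers mark. Libraries labelled p27KO with the same number correlated at -0.138. With 2 libraries in each p27KO group, the value of 0.138 for the other pairs only mirrors this. No 2 replicates were copies, with chi-square values of 14.8 to 64.5 per gene. Simulated counts were used to test the fits. Tables and plots were made in Python 3.11.15 (pandas 2.3.3, matplotlib 3.10.9).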

Additional observations from a re-analysis of the deposited data

Results flagged for a closer look

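In the 9 genes and the wider list together, the fall from PRO to DIFF differed between the labels for 11 genes. The test was of that difference itself, the interaction of genotype and stage with edgeR, which 0.389% of all genes tested passed. Of the 16 further mitotic genes 6 passed it as well, although without replicate 2 or 3 of WT PRO no gene tested passed it. For each of the 11 genes the libraries labelled p27KO fell less. Among the 9 genes these were Arhgap11a (1.32 on the log2 scale), Hmmr (1.76), Pbk (1.77) and Prr11 (1.39). In the wider list they were Kif4 (1.54), Aurkb (1.65), Incenp (1.21), Birc5 (1.62), Cdca8 (1.69), Iqgap3 (1.34) and Cep55 (1.86). With the replicate number as a block, the calls of Aurkb, Incenp, Cdca8 and Iqgap3 were lost. All 11 calls were lost without replicate 2 or 3 of WT PRO and without any 1 of the libraries labelled p27KO.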

How the results depend on the processing

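The falls of the 9 genes in WT and in the libraries labelled p27KO kept their direction and their calls in every alternative run (162 of 162 values each). Of the interaction values, 116 kept their side of the threshold, 26 lost it and 11 gained it. For the DIFF difference these numbers were 149, 10 and 3. The 4 interaction calls became 8 with DESeq2 and between 0 and 8 with a library left out. The 8 DIFF calls became 4 with only the groups compared and between 5 and 9 with a library left out. Without the filter on low counts, Racgap1 lost and Cit gained the DIFF call. In the wider list, a minimum log2 fold change of 1 left 24 of 41 calls in WT and 23 of 38 in the libraries labelled p27KO. Its 7 interaction calls became 12 with DESeq2, 4 with thinned counts and between 0 and 11 with a library left out. Its 14 DIFF calls became 3 with only the groups compared and between 8 and 13 with a library left out. The replicate block gave 4 of the wider list in the interaction and changed no call of the 9 genes. A crossed pairing of the p27KO numbers, chosen after seeing the data, gave 4 of the 9 and 4 of the wider list. In PRO, where nothing was called, signs turned. With a library left out, Racgap1 lay between -0.1041 and 0.1054, Cit between -0.3651 and 0.0607, Pbk between -0.0112 and 0.2407 and Prr11 between -0.0708 and 0.0627. Prr11 was 0.0026 without the filter, 0.0378 with the block, 0.0338 with the crossed block and 0.0031 with thinned counts. The share of the PRO level left was 39.2 to 51.2% for Cit and 27.6 to 33.8% for Pbk under the p27KO label with a library left out. With ranks in place of levels 0 of the 10 most similar genes were shared, and with 250 bases before the start alone 3 genes held CHR letters. The causes of these changes were not tested. Where a p27KO library was left out, the lone one was assumed to vary like the other groups. With 2 libraries in each p27KO group, the spread between replicates limits what single genes can show.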
